A study of Rattus norvegicus with 13 samples.

Results

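Histone acetyltransferases (HATs), histone deacetylases (HDACs) and sirtuins, the enzymes that add acetyl groups to lysines of histones and other proteins and take them off, were followed in rat lenses that turned cloudy in galactose. The list held 31 genes, 13 acetyltransferases and 18 deacetylases, chosen by name, with earlier results of these data known. Each was read from the probe sets that carry its name alone, taking the probe set with the highest mean over all arrays. In all, 27 of the 31 genes had such a probe set, out of 18166 genes on the array. Ep300, Kat6b, Sirt1 and Hdac9 had none and were not analysed here. Of the 27 genes, 20 reached a log2 signal of 5 in at least 1 array and entered the tests, as did 6778 genes in all. These 20 were 10 acetyltransferases and 10 deacetylases.

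Acetyltransferases transfer the acetyl group of acetyl-CoA to lysine, which loosens chromatin and makes docking sites for bromodomain proteins. The classical deacetylases remove it with the help of zinc, whereas sirtuins consume NAD. In the lens, the crystallins are themselves acetylated on lysine, and class I deacetylases and the p300/CBP acetyltransferases act in the growth and differentiation of lens cells. The 4 acetyltransferases aimed at in this series were p300 (Ep300) and CBP (Crebbp), the targets given for C646 and CBP30, Gcn5 (Kat2a), the target given for CPTH2, and Tip60 (Kat5), the target given for TH1834.

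All lenses came from male Sprague Dawley rats aged 6 weeks and were cultured in M199 medium. The inhibitor groups were kept for 6 days in 30 mM galactose, with 1 array each of C646 at 40 µM, CBP30 at 10 µM, CPTH2 at 80 µM, C646 with CPTH2, CBP30 with CPTH2, and TH1834 at 50 µM. The label of the CBP30+CPTH2 array names CPTH2 for both of its doses, and its title was followed. The inhibitors were dissolved in DMSO and added once opacity had formed. By the study's methods the other lens of each pair was given DMSO alone, whereas the labels give no vehicle for the other arrays. No pairing of treated and untreated lenses entered the tests. Galactose alone, also at 30 mM, was sampled on Day 6 and Day 4 with 3 arrays each, and the control was 1 array of a lens cultured for 4 days without galactose. The Day 6 arrays therefore differ from the control in time as well as in galactose. The labels do not say whether replicate arrays came from different animals, so that p-values measure only the spread between these arrays, which may be technical. With 1 control array and 1 array per inhibitor, every such test takes these arrays to vary as the 6 galactose arrays do.

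The arrays had similar medians, 5.62 to 5.89 over the genes tested. The tissue label was borne out by the lens crystallins (array means of 11.86 to 12.31) and lens fibre genes (means of 10.10 to 10.59). Probe sets existed for 10 of 16 listed crystallins, 11 of 15 fibre genes and 9 of 10 epithelium genes, and all of these reached the minimum. No measured marker of photoreceptors, pigment epithelium, endothelium, cornea or red blood cells reached the minimum, and 2 of 13 macrophage markers did. Probe sets existed for 12 of 13 photoreceptor, 8 of 9 pigment epithelium and 6 of 8 endothelium markers. For cornea they existed for 3 of 5 and for red blood cells for 1 of 6, so these cells were only partly covered. Lens epithelium markers (9 of 10 reached the minimum) averaged 4.79 to 6.92 with inhibitors, 5.67 to 6.56 on galactose Day 6, 5.49 to 6.44 on galactose Day 4 and 7.43 in the control. The lowest of these averages were in C646+CPTH2, 4.79, and in replicate 1 of Day 4 and of Day 6, 5.49 and 5.67. This average, and 6 of the 9 markers singly (Foxe3, Pdgfra, Aqp1, Sox2, Six3 and Mab21l1), lay below the control in all 6 arrays of galactose alone, whereas Pax6, Cdh1 and Gja1 did not separate them (Pax6 up to 7.92 in galactose, against 7.70 in the control). The part of epithelium in any result was not tested. In whole lenses, fewer cells of a type and less RNA per cell cannot be told apart.

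The only listed genes called in any comparison were Hat1 and Ncoa1, both on Day 6 against the control. Their promoters are shown here because the results below turn on these genes. Each stretch runs from 250 bases before to 50 bases after the annotated start, read 5′ to 3′ on the gene's strand from the RefSeq promoter table of build GRCr8. Capitals mark the GC box, GGGCGG, and the CCAAT box, CCAAT, on either strand (CCGCCC and ATTGG on the other). Hat1 lies on the plus strand at chr3:76624780-76625079 and Ncoa1 on the minus strand at chr6:33195875-33196174.
Hat1: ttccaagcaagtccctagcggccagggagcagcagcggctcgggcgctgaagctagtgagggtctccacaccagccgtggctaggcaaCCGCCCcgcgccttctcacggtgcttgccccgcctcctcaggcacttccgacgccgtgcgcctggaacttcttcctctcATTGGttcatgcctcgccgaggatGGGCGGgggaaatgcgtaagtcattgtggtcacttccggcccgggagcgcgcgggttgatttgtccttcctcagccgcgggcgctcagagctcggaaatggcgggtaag
Ncoa1: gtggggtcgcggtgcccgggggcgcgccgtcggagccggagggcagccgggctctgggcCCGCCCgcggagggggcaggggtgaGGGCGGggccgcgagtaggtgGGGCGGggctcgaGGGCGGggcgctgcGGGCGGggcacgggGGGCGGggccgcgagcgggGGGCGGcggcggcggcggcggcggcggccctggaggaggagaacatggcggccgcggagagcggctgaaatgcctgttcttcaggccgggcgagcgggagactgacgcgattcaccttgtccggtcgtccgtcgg
The Hat1 stretch held 2 GC boxes, 1 CCAAT box and 28 CpG dinucleotides, and the Ncoa1 stretch 7 GC boxes, no CCAAT box and 47 CpG. The boxes did not overlap each other in either stretch. A GC box stood in 33.1% and a CCAAT box in 37.5% of all 33469 promoters of this length. The table matched 21 of the 27 genes, with 22 promoters, of which 16 held a GC box and 13 a CCAAT box. Their median was 21 CpG (4 to 48), against a median of 7 over all promoters. Not matched were Kat2a, Kat6a, Ncoa2, Ncoa3, Hdac11 and Sirt6. A match of letters is a description and shows no binding.

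The first question was whether the enzymes themselves were altered while the cataract formed. On Day 4 none of the 20 genes was called by limma at a Benjamini-Hochberg adjusted p under 0.05 over all genes, against 3.78% of the 6778 genes tested (256, of which 158 were higher and 98 lower), and 4 of the 20 had an unadjusted p under 0.05, as did 22% of all genes. On Day 6 Hat1 was called higher, 1 of 20 where 2.8% of all genes were, and Ncoa1 lower, 1 of 20 where 2.69% of all genes were. In either direction this was 2 of 20 on Day 6, against 5.49% of all genes (372). An unadjusted p under 0.05 was reached by 4 of the 20 on Day 6 and by 23.7% of all genes. The median log2 difference of the 20 genes was −0.03 on Day 4 and −0.21 on Day 6, where the medians over all genes were 0.05 and −0.01.

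**Figure D1:**
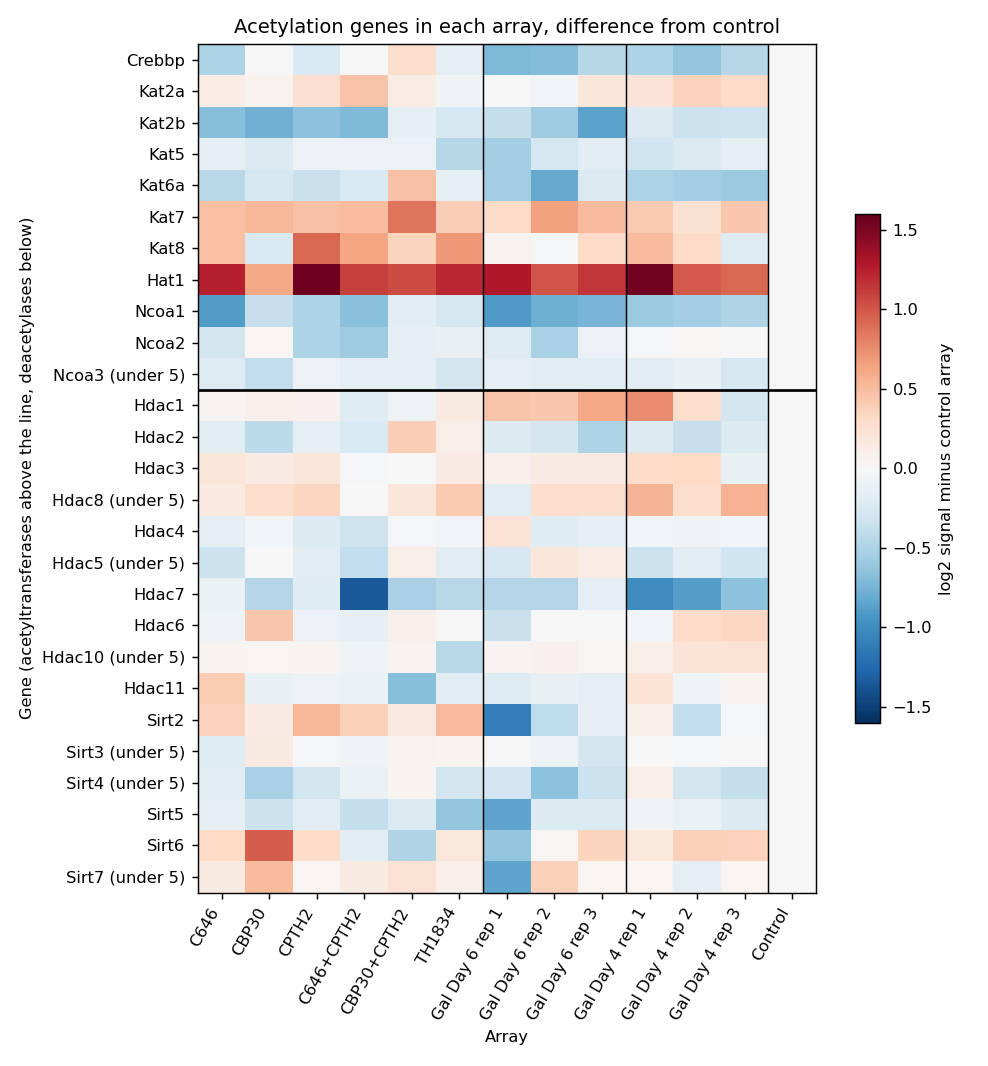
Log2 signal of each of the 27 genes minus that of the control array, by array (columns: 6 inhibitor arrays, 3 galactose Day 6, 3 galactose Day 4 and the control, which is 0 by definition). Acetyltransferases stand above the line and deacetylases below it, and "under 5" marks the 7 genes that did not reach the minimum; the Hat1 row is red and the Ncoa1 row blue in all 12 other arrays.

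Hat1 is the type B acetyltransferase that acetylates newly made histone H4 before it is built into chromatin. It had signals of 6.93, 6.65 and 6.79 on galactose Day 6 and of 7.19, 6.63 and 6.57 on Day 4, against 5.65 in the control. The 6 galactose arrays thus all lay above the control and overlapped between the days. Hat1 rose on Day 6 by 1.14 ± 0.28 log2 (SE; adjusted p = 0.0498, limma). The Day 4 difference had nearly the same size, 1.15 ± 0.28, and did not pass (adjusted p = 0.0566). Over the alternative settings the Day 6 difference ranged from 1.07 to 1.2 with adjusted p-values of 0.0194 to 0.112, and it was no longer called without Day 4 replicate 2 (0.0826) or 3 (0.0712), or without Day 6 replicate 1 (0.0791), 2 (0.0977) or 3 (0.0996). A setting chosen after seeing the data left out replicate 1 of both galactose days, the arrays with the lowest epithelium markers in galactose alone. Hat1 stayed called there (adjusted p = 0.0194), as did the Ncoa1 difference described next (adjusted p = 0.0366). Calls over all genes rose from 372 to 903 in that setting, so smaller adjusted p-values were not particular to these genes. The remaining galactose arrays still averaged 6.22 to 6.56 in epithelium markers, against 7.43 in the control. The part of epithelium was not tested.

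Ncoa1 (steroid receptor coactivator SRC-1), a coactivator of nuclear receptors that can acetylate histones and recruits p300/CBP, had signals of 4.69, 4.82 and 4.85 on galactose Day 6 and of 5.0, 5.06 and 5.12 on Day 4, against 5.60 in the control. The control was highest, and the 3 Day 6 arrays lay below the 3 Day 4 arrays without overlap. Ncoa1 fell on Day 6, with a log2 difference of −0.81 ± 0.20 (SE; adjusted p = 0.0499, limma), and the Day 4 difference of −0.54 ± 0.20 did not pass (adjusted p = 0.152). The Day 6 call, too, was lost without Day 4 replicate 2 (adjusted p = 0.0919) or 3 (0.0864), or without Day 6 replicate 1 (0.0612), 2 (0.113) or 3 (0.0908). The minimum signal of 5 was reached by Ncoa1 in 8 of the 13 arrays. Of its relatives, Ncoa2, named here outside the rule, had Day 6 signals averaging 6.46 ± 0.22 and Day 4 signals averaging 6.74 ± 0.02 (SD, n = 3 each), against 6.73 in the control, and Ncoa3 stayed under the minimum in every array (4.32 to 4.71).

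Of the inhibitor targets, Crebbp stood lowest relative to the control. CBP, its product, is a transcriptional coactivator that acetylates histones H3 and H4. It had signals of 6.08, 6.11 and 6.34 on galactose Day 6 and of 6.30, 6.17 and 6.34 on Day 4, against 6.80 in the control. All 6 galactose arrays lay below the control, with differences of −0.63 ± 0.21 on Day 6 (adjusted p = 0.117) and −0.53 ± 0.21 on Day 4 (adjusted p = 0.176) that did not pass. Kat2a, the Gcn5 acetyltransferase of the SAGA and ATAC coactivator complexes, had 5.21, 5.17 and 5.40 on Day 6 and 5.41, 5.58 and 5.52 on Day 4, against 5.21 in the control. Kat2a on Day 6 was close to the control (difference 0.05, 95% interval −0.42 to 0.51), and every Day 4 array lay above the control and above all Day 6 arrays. Kat5 (Tip60), the catalytic subunit of the NuA4/TIP60 complex in transcription and DNA repair, had 5.17, 5.43 and 5.53 on Day 6 and 5.39, 5.48 and 5.56 on Day 4, against 5.71 in the control. Again all 6 galactose arrays lay below the control, by a Day 6 difference of −0.33 ± 0.22 (adjusted p = 0.405) and a Day 4 difference of −0.23 ± 0.22 (adjusted p = 0.601).

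**Figure D2:**
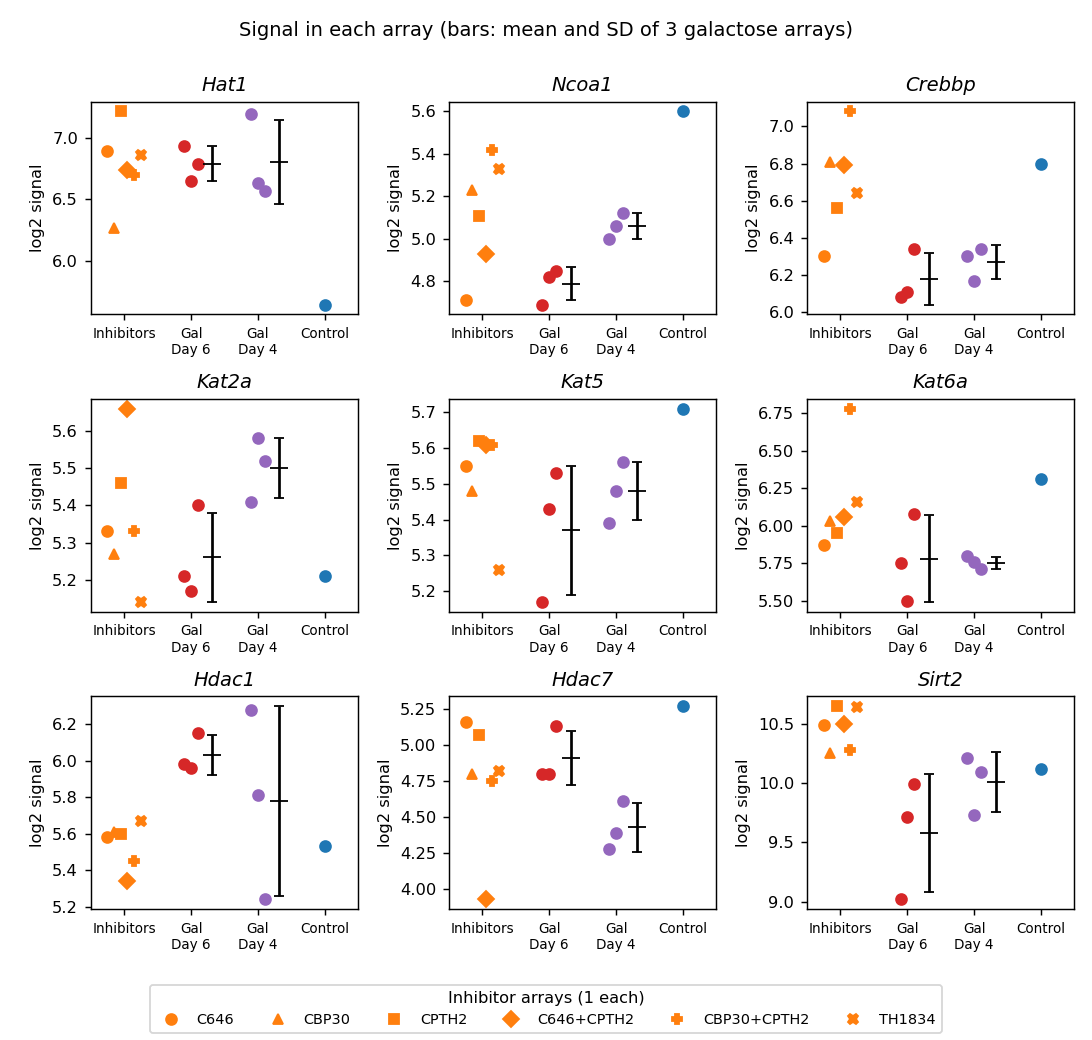
Log2 signal of 9 genes in each array: 6 inhibitor arrays (orange, 1 symbol per treatment), galactose Day 6 (red), galactose Day 4 (purple) and control (blue), with the mean and SD of the 3 arrays of each galactose day as black bars; each panel has its own signal axis, which does not start at 0. Hat1 is above and Ncoa1 below the single control array in all 12 other arrays, Sirt2 is higher and Hdac1 lower in all 6 inhibitor arrays than in the 3 Day 6 arrays.

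Among the other acetyltransferases, Kat2b (PCAF), the close relative of Gcn5, had 6.48, 6.29 and 6.01 on Day 6 and 6.63, 6.52 and 6.53 on Day 4, against 6.86 in the control. The 2 days did not overlap and both were under the control, with a Day 6 difference of −0.60 ± 0.23 that did not pass (adjusted p = 0.159). Kat6a (MOZ), a MYST acetyltransferase of histone H3, had 5.75, 5.50 and 6.08 on Day 6 and 5.80, 5.76 and 5.71 on Day 4, against 6.31 in the control, with differences of −0.53 ± 0.25 (adjusted p = 0.232) and −0.56 ± 0.25 (adjusted p = 0.234). The remaining MYST genes, Kat7 (HBO1) and Kat8 (MOF), fall outside the rule for named genes. Kat7 lay above its control value of 6.37 in all galactose arrays (6.61 to 7.02), while the galactose arrays of Kat8 (5.44 to 6.16) lay on both sides of its control value of 5.65.

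In counts over the 20 genes, 2 genes (Hat1 and Kat7) had all 6 galactose arrays above the control, 10% of the list where 27.2% of all genes did. Another 8 (Crebbp, Kat2b, Kat5, Kat6a, Ncoa1, Hdac2, Hdac7 and Sirt5) had all 6 below it, 40% of the list where 23.6% of all genes did. The control is a single array, so that such counts move with that array.

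None of the 10 deacetylases was called on either day, against 3.78% of all genes on Day 4 and 5.49% on Day 6. An unadjusted p under 0.05 was reached by 1 of the 10 on Day 4 (Hdac7) and by none on Day 6. Of all genes, 22% and 23.7% reached it on these days. Their median absolute log2 difference from the control was 0.25 on Day 6, against 0.51 for the 10 acetyltransferases and 0.32 for all genes. On Day 4 the deacetylase median was 0.18, against 0.33 for the acetyltransferases and 0.31 for all genes. Some deacetylases seldom reached the minimum signal of 5: Hdac2, Hdac4, Hdac6, Hdac7 and Hdac11 did in 3, 1, 4, 4 and 2 arrays. Of the acetyltransferases tested, Ncoa1 reached it in 8 arrays and the others in all arrays. The part of low signal in these medians was not tested. Among class I enzymes, which work in the SIN3, NuRD, CoREST and NCoR corepressor complexes, Hdac1 had 5.98, 5.96 and 6.15 on Day 6 and 6.28, 5.81 and 5.24 on Day 4, against 5.53 in the control. The 3 Day 4 arrays lay on both sides of the control, and neither difference passed (Day 6: 0.50 ± 0.35, adjusted p = 0.426; Day 4: 0.25 ± 0.35, adjusted p = 0.735, and −0.0028 without Day 4 replicate 1). Hdac2 and Hdac3, outside the rule, had log2 differences of −0.34 and 0.12 on Day 6, with adjusted p-values of 0.37 and 0.807.

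Class IIa enzymes bind MEF2 transcription factors and move between cytoplasm and nucleus. Hdac7 of this class had 4.80, 4.80 and 5.13 on Day 6 and 4.28, 4.39 and 4.61 on Day 4, against 5.27 in the control. All 6 galactose arrays lay below the control, and the Day 6 arrays above the Day 4 arrays. Its Day 4 difference, −0.84 ± 0.24, did not pass (adjusted p = 0.0833), nor did the Day 6 difference of −0.36 ± 0.24 (adjusted p = 0.405). Hdac7 reached the minimum in 4 of 13 arrays. Hdac4 and Hdac5, outside the rule, reached it in 1 array and in none. Hdac6, the class IIb deacetylase of tubulin, had 4.60, 4.95 and 4.95 on Day 6 and 4.91, 5.25 and 5.28 on Day 4, against 4.95 in the control, with differences of −0.12 on Day 6 (adjusted p = 0.822) and 0.20 on Day 4 (adjusted p = 0.69). Hdac11, the class IV enzyme, which takes fatty acyl groups off lysine, had 4.58, 4.67 and 4.65 on Day 6 and 5.01, 4.72 and 4.83 on Day 4, against 4.79 in the control. Its differences were −0.15 on Day 6 (adjusted p = 0.714) and 0.07 on Day 4 (adjusted p = 0.895), and both genes had galactose arrays on either side of the control.

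Of the sirtuins, Sirt2, the mainly cytoplasmic deacetylase of tubulin, had 9.02, 9.71 and 9.99 on Day 6 and 10.21, 9.73 and 10.09 on Day 4, against 10.12 in the control. Day 6 replicate 1 was the lowest of all arrays, and the Day 6 difference of −0.54 ± 0.36 did not pass (adjusted p = 0.406; −0.26 without that array). Sirt6, a nuclear deacetylase of histone H3 that acts in DNA repair, had 5.78, 6.43 and 6.77 on Day 6 and 6.58, 6.79 and 6.78 on Day 4, against 6.41 in the control. Here too replicate 1 of Day 6 was lowest, and the differences were −0.09 ± 0.34 (adjusted p = 0.906) and 0.30 ± 0.34 (adjusted p = 0.665). Sirt5, a mitochondrial desuccinylase outside the rule, had a Day 6 difference of −0.44 (adjusted p = 0.383).

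Between the galactose days no listed gene was called, as was none of all genes (0%, limma). An unadjusted p under 0.05 was reached by 1 of the 20, Hdac7, and by 5.36% of all genes. Hdac7 was the 1 gene of 20 with all Day 6 arrays above all Day 4 arrays, where 2.61% of all genes were, by a log2 difference of 0.48 (95% interval 0.10 to 0.86). Kat2a, Kat2b, Ncoa1, Ncoa2 and Hdac11 had all Day 6 arrays below, 5 of 20 where 8.19% of all genes were, with log2 differences between −0.22 and −0.30. All of these had an adjusted p of 0.883.

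The 7 genes that did not reach the minimum were Ncoa3, Hdac5, Hdac8, Hdac10, Sirt3, Sirt4 and Sirt7, whose highest signals were 4.71, 4.96, 3.99, 4.31, 3.99, 4.49 and 4.71. They entered no test. Some probe sets held the same value to the last digit in several arrays, up to 4 arrays for Hdac3, Hdac4, Hdac6, Hdac8 and Sirt5, so that ties in these genes are a property of the deposited values.

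The next question was whether inhibitors of the enzymes altered the level of these transcripts. None of the 20 genes was called in any of the 6 treatments against galactose Day 6 by limma. The background shares were as low: 0% of all genes with C646, 0% with CBP30, 0.0295% with CPTH2, 0.856% with C646+CPTH2, 0% with CBP30+CPTH2 and 0.059% with TH1834. With an unadjusted p under 0.05 there were 2 of the 20 for C646 (4.06% of all genes), 2 for CBP30 (15.8%), 2 for CPTH2 (12.7%), 3 for C646+CPTH2 (16.5%), 5 for CBP30+CPTH2 (20.8%) and 2 for TH1834 (14%). With the 6 treated arrays as a group, none of the 20 was called, against 0.0148% of all genes, and 3 had an unadjusted p under 0.05, as did 17% of all genes. In this pooled comparison the spread holds the differences between treatments as well. The pooled median was 0.11 over the 20 genes and also 0.11 over all genes tested.

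**Figure D3:**
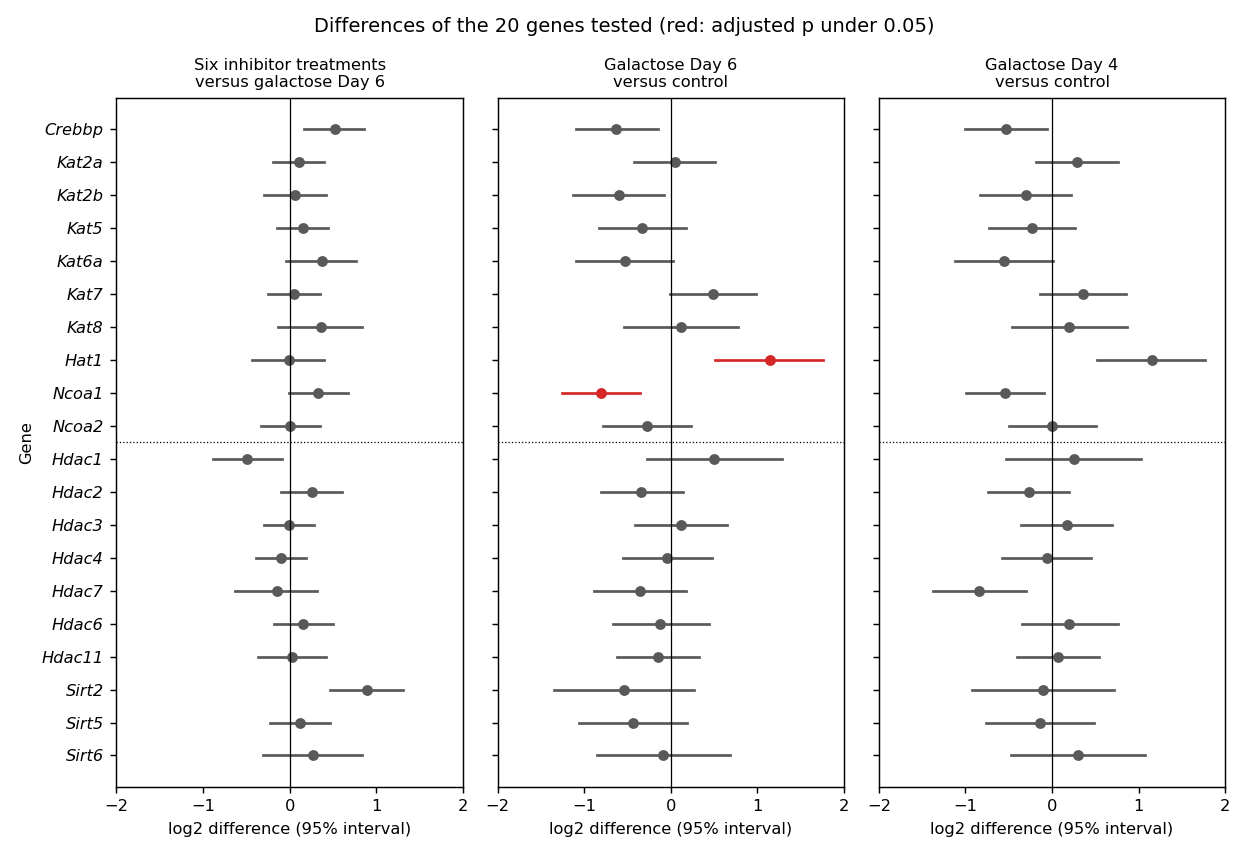
Log2 difference with its 95% interval (limma, not adjusted for the number of genes) of the 20 genes tested, for the 6 inhibitor treatments against galactose Day 6 (left), galactose Day 6 against control (middle) and galactose Day 4 against control (right). Red marks an adjusted p under 0.05, reached by Hat1 (1.14) and Ncoa1 (−0.81) on Day 6; the dotted line parts acetyltransferases from deacetylases.

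Sirt2 had the smallest adjusted p of the list under the inhibitors. Its signals were 10.49 with C646, 10.25 with CBP30, 10.65 with CPTH2, 10.50 with C646+CPTH2, 10.28 with CBP30+CPTH2 and 10.64 with TH1834, against 9.58 ± 0.50 on Day 6 (SD, n = 3). All 6 treated arrays lay above all 3 Day 6 arrays, which held for 1 of the 20 genes and 6.89% of all genes. The pooled difference was 0.89 ± 0.20 and did not pass (adjusted p = 0.0787, limma, with a range of 0.0563 to 0.314 over the alternatives), and it was 0.61 (adjusted p = 0.314) without Day 6 replicate 1. Single differences were largest with CPTH2, 1.07 ± 0.36 (adjusted p = 0.347), and TH1834, 1.06 ± 0.36 (adjusted p = 0.279). The treated arrays also lay above the control value of 10.12.

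Hdac1 went the other way. It had signals of 5.58 with C646, 5.61 with CBP30, 5.60 with CPTH2, 5.34 with C646+CPTH2, 5.45 with CBP30+CPTH2 and 5.67 with TH1834, against 6.03 ± 0.11 on Day 6. All treated arrays were below all Day 6 arrays, which held for 1 of 20 genes and 2.07% of all genes, and they were near the control value of 5.53. The pooled difference of −0.49 ± 0.18 did not pass (adjusted p = 0.213).

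For the inhibitor targets, Crebbp had 6.30 with C646, 6.81 with CBP30, 6.56 with CPTH2, 6.79 with C646+CPTH2, 7.08 with CBP30+CPTH2 and 6.64 with TH1834, against 6.18 ± 0.14 on Day 6. The C646 array lay within the range of the Day 6 arrays, and the other 5 lay above it. The largest difference was that of CBP30+CPTH2, 0.91 ± 0.21 (adjusted p = 0.0996), and the pooled difference was 0.52 ± 0.16 (adjusted p = 0.151). The 2 compounds aimed at p300/CBP were used at different doses, so their values stand side by side without a comparison: 0.12 (95% interval −0.35 to 0.60) for C646 and 0.64 (0.16 to 1.11) for CBP30, each against Day 6. Kat2a, the gene of CPTH2's target, had 5.46 with CPTH2, 5.66 with C646+CPTH2 and 5.33 with CBP30+CPTH2, and 5.33, 5.27 and 5.14 with C646, CBP30 and TH1834, against 5.26 ± 0.12 on Day 6. With CPTH2 alone the difference was 0.20, with a 95% interval of −0.27 to 0.67. Kat5, the gene of TH1834's target, had 5.26 with TH1834, against 5.37 ± 0.18 on Day 6, a difference of −0.12 (95% interval −0.61 to 0.38). Kat5 had 5.55 with C646, 5.48 with CBP30, 5.62 with CPTH2, and 5.61 in both combinations with CPTH2. No measured target transcript passed the test under the compound aimed at it, although the CBP30 interval for Crebbp, not adjusted for the number of genes, lay above 0. Ep300, the gene of p300, had no probe set, so that for C646 and CBP30 only Crebbp was read. The activity of the enzymes was not measured by these arrays.

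Hat1 and Ncoa1, the genes called on Day 6, were also followed under the inhibitors. Hat1 had 6.89 with C646, 6.27 with CBP30, 7.21 with CPTH2, 6.74 with C646+CPTH2, 6.70 with CBP30+CPTH2 and 6.86 with TH1834, against 6.79 ± 0.14 on Day 6. All stayed above the control value of 5.65, and the pooled difference from Day 6 was −0.01 (95% interval −0.43 to 0.40). Ncoa1 had 4.71 with C646, 5.23 with CBP30, 5.11 with CPTH2, 4.93 with C646+CPTH2, 5.42 with CBP30+CPTH2 and 5.33 with TH1834, against 4.79 ± 0.08 on Day 6. Of the 6 arrays, 5 lay above the Day 6 arrays and all lay below the control value of 5.60. Its pooled difference was 0.33 ± 0.16 and did not pass (adjusted p = 0.3).

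A few values stood out in single arrays. Kat6a was 6.78 with CBP30+CPTH2, and 5.87, 6.03, 5.95, 6.06 and 6.16 with C646, CBP30, CPTH2, C646+CPTH2 and TH1834, against 5.78 ± 0.29 on Day 6, a difference of 1.00 ± 0.25 for that array (adjusted p = 0.103). Sirt6 was 7.38 with CBP30 and 5.93 with CBP30+CPTH2, the highest and lowest of the treated arrays, against 6.33 ± 0.50 on Day 6, and the CBP30 difference was 1.05 ± 0.34 (adjusted p = 0.212). The remaining Sirt6 signals were 6.73 with C646, 6.71 with CPTH2, 6.23 with C646+CPTH2 and 6.59 with TH1834. Hdac7 was 3.93 with C646+CPTH2, lowest of all 13 arrays, and 5.16, 4.80, 5.07, 4.75 and 4.82 with C646, CBP30, CPTH2, CBP30+CPTH2 and TH1834, against 4.91 ± 0.19 on Day 6. That difference of −0.98 ± 0.24 did not pass (adjusted p = 0.104), and passed with −1.03 (adjusted p = 0.0496) when replicate 1 of both galactose days was left out. That setting was chosen after seeing the data, and calls over all genes for C646+CPTH2 rose in it as well. The C646+CPTH2 array was also the one with the lowest epithelium markers (mean 4.79), and their part in the Hdac7 value was not tested. Hdac6, Hdac11 and Kat2b differed by less than 1 log2 from Day 6 in every treated array. Hdac6 had 4.87 with C646, 5.38 with CBP30, 4.86 with CPTH2, 4.82 with C646+CPTH2, 5.03 with CBP30+CPTH2 and 4.95 with TH1834, against 4.83 ± 0.20 on Day 6. Hdac11 had 5.19, 4.67, 4.70, 4.68, 4.11 and 4.62 in the same order of treatments, against 4.63 ± 0.05 on Day 6. The C646 array was highest and the CBP30+CPTH2 array lowest of all 13. C646 was also 1 of the 2 arrays through which Hdac11 reached the minimum. Kat2b had 6.18, 6.09, 6.20, 6.15, 6.71 and 6.58 in that order, against 6.26 ± 0.24 on Day 6, with the CBP30+CPTH2 and TH1834 arrays above the Day 6 range.

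Markers of other cells also varied across these arrays. The 2 macrophage markers that reached the minimum averaged 4.41 to 5.48 with inhibitors, 4.05 to 4.77 on Day 6, 3.52 to 4.41 on Day 4 and 4.27 in the control. Cd68, a lysosomal protein of macrophages that other cells also make, was 5.59 to 7.51 with inhibitors, against 4.32 to 5.21 on Day 6 and 3.49 in the control, while Lyz2, the lysozyme of macrophages, averaged 3.31 (2.73 to 4.51) with inhibitors and 3.89 (3.56 to 4.33) on Day 6, against 5.05 in the control. The 2 markers thus ran in opposite directions, and the leukocyte marker Ptprc did not reach the minimum in any array. Of 9 smooth muscle markers 7 had a probe set and 2 reached the minimum. These 2 also ran apart: Tagln averaged 6.63 with inhibitors and 8.28 on Day 6, against 5.59 in the control, and Des averaged 4.19 and 3.98, against 6.23. Of 9 skeletal muscle markers 5 had a probe set and 2 reached the minimum. These were Acta1 (5.74 with inhibitors and 6.92 on Day 6, against 4.32 in the control) and Ckm (4.97 and 5.15, against 5.48). The study itself reports Acta1 and Tagln, by qRT-PCR, as raised by galactose in its lenses and lowered with TH1834. The crystallin average separated the inhibitor arrays, 11.86 to 11.98, from the Day 6 arrays, 12.16 to 12.31, without overlap, as Sirt2 and Hdac1 did. The part of any of these markers' cells in the Sirt2 and Hdac1 values was not tested.

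CPTH2 was added at the same dose to galactose alone, to C646 and to CBP30, and the mean of these 3 steps asks what CPTH2 adds. None of the 20 genes was called, against 0.0885% of all genes, and 5 had an unadjusted p under 0.05, as did 14.5% of all genes. Kat2a differed by 0.19 ± 0.14 (adjusted p = 0.539) and Crebbp by 0.38 ± 0.14 (adjusted p = 0.285). Sirt6 differed by −0.52 ± 0.23 (adjusted p = 0.334). Whether the CPTH2 step depended on what it was added to was tested by the difference between steps, and no listed gene passed (limma, smallest adjusted p of 0.564, 0.483 and 0.733 in the 3 tests, with 1, 1 and 2 of the 20 at an unadjusted p under 0.05, where 7.11%, 7.26% and 6.21% of all genes were). None of all 6778 genes passed in these 3 tests either (0%). The smallest adjusted p was that of Sirt6, whose CPTH2 step on CBP30 lay −1.84 ± 0.54 from that on galactose alone (adjusted p = 0.483).

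The treatments described in the study as effective on opacity (TH1834, C646+CPTH2 and CBP30+CPTH2) were set against C646, CBP30 and CPTH2, each alone. The study describes CPTH2 alone as weakly effective. CPTH2 was also part of both combinations, and TH1834 is itself a single inhibitor. None of the 20 genes was called, nor was any gene (0%, limma), with 2 of the 20 and 4.2% of all genes at an unadjusted p under 0.05. The largest differences were those of Sirt6, −0.69 (95% interval −1.26 to −0.13), and Hdac7, −0.51 (−1.0 to −0.02), both with an adjusted p of 0.983. Crebbp, Kat2a and Kat5 differed by 0.28 (95% interval −0.10 to 0.66), 0.02 (−0.33 to 0.38) and −0.05 (−0.40 to 0.29).

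As groups, acetyltransferases and deacetylases were compared within each array through the median of their log2 differences, since signals of different probe sets are not comparable. Acetyltransferases minus deacetylases, relative to the control, were −0.02, −0.24 and −0.01 on Day 6 (−0.09 ± 0.13, SD, n = 3) and −0.16, −0.03 and −0.09 on Day 4 (−0.09 ± 0.06). Relative to the Day 6 mean they were −0.13 with C646, 0.04 with CBP30, 0.10 with CPTH2, 0.24 with C646+CPTH2, 0.35 with CBP30+CPTH2 and 0.24 with TH1834 (0.14 ± 0.17, n = 6). Relative to the control, as for the galactose days, the treated values were −0.22 with C646, −0.12 with CBP30, −0.09 with CPTH2, 0.14 with C646+CPTH2, 0.25 with CBP30+CPTH2 and −0.18 with TH1834. Against the control, then, all 6 arrays of galactose alone and 4 of 6 treated arrays were below 0, and both combinations with CPTH2 were above it. These are descriptions with no test. Relative to the control, the 3 measured inhibitor targets had medians of −0.54, −0.28 and −0.18 on Day 6 and of −0.31, −0.22 and −0.15 on Day 4. The medians of all genes were −0.06 to 0.05 on Day 6 and 0.02 to 0.08 on Day 4. A median of 3 genes is the value of the middle gene. Crebbp and Kat5 were lower than the control on both days, whereas Kat2a differed by 0.05 on Day 6 and 0.29 on Day 4.

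**Figure D4:**
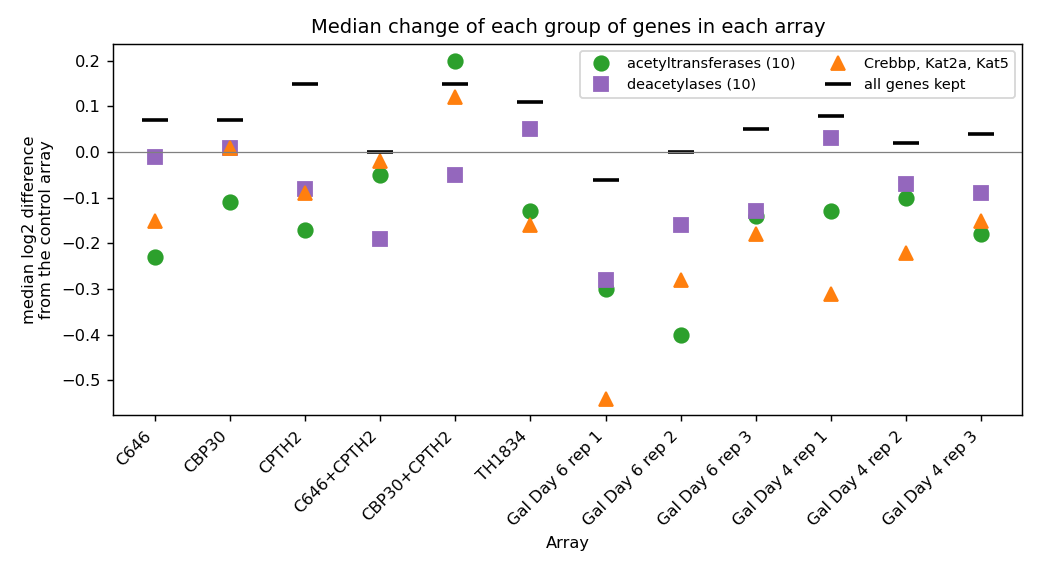
Median log2 difference from the control array in each of 12 arrays (6 inhibitor arrays, 3 galactose Day 6, 3 galactose Day 4) for 10 acetyltransferases, 10 deacetylases, the 3 inhibitor targets and all 6778 genes. The acetyltransferases are at −0.10 or lower in all 6 galactose arrays, and CBP30+CPTH2 is the 1 array where they are above the control (0.20).

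Around the enzymes themselves, 112 genes in 10 lists of complex partners, readers and cofactor supply were tested. On Day 6 there were 4 called higher and 3 lower (limma), and on Day 4 there were 3 called higher and none lower, against 2.8% and 2.69% of all genes on Day 6 and 2.33% and 1.45% on Day 4. Of the TIP60 complex partners of Kat5, 1 of 13 was called: Morf4l2 (MRGX), a chromatin subunit shared with SIN3 complexes, had 8.44 ± 0.20 on Day 6 and 8.47 ± 0.25 on Day 4, against 7.03 in the control, and rose by 1.41 ± 0.26 (adjusted p = 0.021) and 1.43 ± 0.26 (adjusted p = 0.0241). Of the SAGA and ATAC partners of Kat2a, 2 of 12 were called on Day 6. Usp22, the deubiquitinase of SAGA, rose by 1.43 ± 0.31 (adjusted p = 0.0361) on Day 6 and by 1.61 ± 0.31 (adjusted p = 0.0294) on Day 4, and Atxn7, which holds that module to SAGA, fell on Day 6 with a difference of −0.92 ± 0.21 (adjusted p = 0.0407).

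Among partners of the other MYST enzymes, 1 of 12 was called: Ing4, the histone-binding subunit of HBO1 complexes, rose by 0.93 ± 0.22 on Day 6 (adjusted p = 0.0464) and by 1.36 ± 0.22 on Day 4 (adjusted p = 0.0177). In the SIN3, NuRD and CoREST complexes, which carry Hdac1 and Hdac2, 2 of 20 were called on Day 6. Rbbp7, a histone-binding protein that is also the partner subunit of Hat1, rose by 1.24 ± 0.29 (adjusted p = 0.0454), and Gatad2b, a NuRD subunit, fell with a difference of −0.98 ± 0.23 (adjusted p = 0.0459). Rbbp7 had 7.34, 7.75 and 7.83 on Day 6 and 7.10, 7.66 and 7.62 on Day 4, against 6.40 in the control. It and Hat1 thus both lay above the control in all 6 galactose arrays, as did 27.2% of all genes. The Day 4 difference of Rbbp7, 1.06 ± 0.29, did not pass. Of the NCoR and SMRT subunits, which work with Hdac3, 1 of 4 was called: Tbl1xr1 fell on Day 6 with a difference of −1.05 ± 0.24 (adjusted p = 0.0423). None was called on either day among 17 bromodomain and YEATS readers, 14 other acetyltransferases, 13 genes of acetyl-CoA supply, 6 of NAD supply and use, and 1 MEF2 factor.

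These calls, too, depended on the setting. Over 13 alternative settings each, Morf4l2 was not called in 3 on Day 6 and 2 on Day 4, Usp22 in 5 and 4, Ing4 in 6 and 1, Atxn7, Gatad2b and Tbl1xr1 in 6 on Day 6, and Rbbp7 in 5 on Day 6. No gene of the 10 lists was called in any comparison of treatments. The smallest adjusted p in the pooled comparison was that of Atxn7, which had 5.76 to 6.14 in treated arrays, against 5.29 ± 0.15 on Day 6 and 6.21 in the control (difference from Day 6 of 0.60 ± 0.14, adjusted p = 0.0787).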

How the data were processed

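RNA was extracted from ground lenses with TRIZOL, amplified as cDNA, labelled and hybridised to GeneChip Rat Gene arrays, 1 for each of 13 samples. The values deposited by the authors are log2 signals per probe set, preprocessed by them in R; background correction and normalization between arrays are not given in the sources used here. Probe sets were named from GEO's platform annotation: 18511 of 36685 had 1 gene name, 575 several and 17599 none.

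One probe set per gene (highest mean) was kept where it reached a log2 signal of 5 in at least 1 array, the minimum of the study's methods, which left 6778 genes. limma 3.58.1 (R 4.3.3; lmFit, eBayes, 1 group per condition, two-sided) was fitted over all of them with Benjamini-Hochberg adjustment. Errors beside differences are standard errors, those beside means are SDs. The pooled and effective-against-single comparisons used the treated arrays as groups. The procedure was tested on simulated data.

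The genes and lists were chosen with earlier results of these data known. Named with all values are the inhibitor targets, genes called or differing by 1 log2 or more, and in each family the gene differing most from the control. The number of arrays limits the precision. Alternatives changed the filter, scaling, prior, probe set rule, reference and arrays left out. Figures were drawn with matplotlib 3.10.9 in Python 3.11.15.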

Additional observations from a re-analysis of the deposited data

How the results depend on the processing

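The count of listed genes called was 0 in every comparison but Day 6 against the control, mostly where few of all genes were called, so that an unmoved count of 0 says nothing of stability. On Day 6 against the control, 2 genes were called as reported, 0 with no filter on signal, 1 (Hat1) with a minimum of 6, and 0 to 2 when 1 galactose array was left out. On Day 4, where 0 were called as reported, 1 (Hat1) was called with a trended, robust prior (adjusted p = 0.0459) and 1 (Hat1, 0.0306) without replicate 1 of both galactose days, which was chosen after seeing the data and also gave 1 call (Hdac7) for C646+CPTH2, where 0 were called as reported. Without a filter 18166 genes are tested in place of 6778. With a minimum of 6, Ncoa1, whose highest signal was 5.6, was not among the genes tested. The cause of the other changes was not tested. Of the 31 single-gene results that were recomputed, only Hat1 and Ncoa1 on Day 6 against the control were called as reported. Of their 439 recomputed values, 421 kept direction and side of the threshold, mostly as values not called. Another 12 lost a call, all of them Hat1 or Ncoa1 on Day 6, and 3 gained one. The other 3 had the opposite sign: Hdac1 on Day 4 (0.25 as reported) ranged from −0.0028 to 0.51 with 1 array left out and was −0.0028 without replicate 1 of both days, and Sirt2 on Day 4 (−0.11) ranged from −0.21 to 0.03, reached without Day 4 replicate 2. All 9 recomputed differences between acetyltransferases and deacetylases stayed within 1 SD. Median centring shifts all genes of an array alike and so could not move them. No array was left out for these differences, so their stability is little tested.

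Calls over all genes moved more: on Day 6 against the control 372 became 151 without a filter, 118 to 518 with 1 array left out and 903 without replicate 1 of both days, and on Day 4 256 became 85, 83 to 379 and 662. For C646+CPTH2, 58 became 16 without a filter, 18 to 112 with 1 array left out, 95 with all 6 galactose arrays as reference and 402 without replicate 1 of both days. For the pooled treatments, 1 became 10 with the trended prior and 141 with all 6 galactose arrays as reference. For CBP30+CPTH2, 0 became 6 with quantile normalization (2 higher, 4 lower), 19 with median centring (3 higher, 16 lower), 10 with the trended prior and 67 with all 6 galactose arrays as reference. For TH1834, 4 (3 higher, 1 lower) became 10 (4 higher, 6 lower) with median centring. For CPTH2 added, 6 became 1 with quantile normalization, 0 with median centring and 116 without replicate 1 of both days. Centring each array on its median moved the median of all genes in the pooled comparison to −0.02, against 0.11 as deposited, and with CPTH2 to −0.02, against 0.17, so that the direction of small differences from Day 6 rests on the scaling.

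Replicate numbers were not taken to pair the Day 4 and Day 6 arrays. Correlations of deviations were 0.341, 0.076 and 0.251 between same-numbered arrays and −0.295 to 0.138 between others, and Day 4 replicate 2 correlated best with Day 6 replicate 3, which leaves pairing unsettled. With the replicate number as a block, 0 listed genes were called between the days, as without it.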
